A study of Homo sapiens with 18 samples.

Results

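The replication-dependent histone genes were taken as the rows of the mRNA-seq table whose symbol begins with HIST1H, HIST2H, HIST3H or HIST4H, together with the ATAC-seq sites and STARR-seq enhancers within 20 kb of their start sites on hg19. There were 72 such genes of 22336 in the table, 22 ATAC-seq sites of 51909 and 35 enhancers of 94527. By histone, 6 of the genes encode H1, 17 H2A, 20 H2B, 14 H3 and 15 H4, with 2 H2B pseudogenes, HIST2H2BA and HIST2H2BC, among them. By position, 55 belong to the HIST1 group on chromosome 6, 13 to HIST2 and 3 to HIST3 on chromosome 1, and HIST4H4 lies alone on chromosome 12.

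The study used LNCaP, a line of androgen-sensitive human prostate adenocarcinoma cells, and comprised 18 libraries. ATAC-seq, in which a transposase cuts accessible DNA, was done on 3 cultures given 100 ng/ml trichostatin A (TSA), an inhibitor of histone deacetylases, for 24 h and on 3 cultures given the DMSO vehicle for 24 h, and mRNA-seq on 3 TSA, 3 DMSO vehicle and 3 untreated cultures. STARR-seq, in which a random genomic fragment drives its own transcription from a plasmid, had 2 output replicates, harvested 72 h after electroporation, and 1 input plasmid library. The TSA and vehicle cultures, like the electroporated cells, were kept in medium with charcoal-stripped serum, which is depleted of steroid hormones. Each deposited value stands for several libraries at once, namely an average over the mRNA-seq libraries of the authors' edgeR fit, a peak list per condition from 3 pooled ATAC-seq cultures and an enhancer list from pooled STARR-seq replicates. The libraries in the mRNA-seq average are not named in the table, and as the fit compared TSA with vehicle, the levels may mix treated and control cells and are set beside the peaks as a description only. No depth per library, no SD and no test between cultures could therefore be given for any value below. The luminal prostate markers were present, with 6 of 6 at or above 1 CPM and FOLH1 the highest at 11.17 in average log2 CPM, while PTPRC, a leukocyte marker, was at -1.89. The basal markers TP63 and KRT14 were at -1.89 and -0.86, although KRT5, also basal, was at 6.23, and the stromal genes VIM and COL1A1 were at 5.88 and 6.77.

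Replication-dependent histones package newly made DNA. H2A and H2B form dimers that flank a tetramer of H3 and H4 in the nucleosome, and H1 binds the linker DNA between nucleosomes. Their genes stand in tight clusters without introns, are transcribed mainly in S phase under the coactivator NPAT, and give mRNAs that end in a conserved stem-loop bound by SLBP instead of a poly(A) tail. The mRNA-seq libraries were made with a kit that selects poly(A) RNA, so the levels below are those of transcripts that such a selection retains and not of all histone mRNA.

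The stem-loop is the shared feature that sets these transcripts apart, and 6 examples are shown because a stem-loop was found in nearly all of the genes. A perfect stem of 6 bases beginning with GG, closed by a loop of 4 bases, was found within 150 bases after the stop codon, or near the RefSeq gene end where no coding end was annotated, in 68 of the 70 protein-coding members. The same search matched 0.430% of 18583 other coding genes. The 68 matches took 8 forms, of which the commonest was carried by 40 genes. The sequences below are from GRCh37, the same assembly as hg19, given on the gene's strand with the stem-loop in capitals.
HIST1H1C, chr6:26055965-26055994, minus strand: cccaaaaGGCTCTTTTCAGAGCCaccactg
HIST2H2BE, chr1:149857731-149857760, minus strand: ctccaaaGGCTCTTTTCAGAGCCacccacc
HIST1H3E, chr6:26225817-26225846, plus strand: atccaaaGGCTCTTCTCAGAGCCaaccact
HIST2H2AC, chr1:149858934-149858963, plus strand: gaccaaaGGCTCTTTTTAGAGCCacccaag
HIST1H4H, chr6:26285352-26285381, minus strand: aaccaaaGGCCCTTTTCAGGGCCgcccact
HIST2H4A, chr1:149804589-149804618, plus strand: tcccaaaGGCCCTTTTTAGGGCCgaccact

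The H1 and H2B examples, HIST1H1C and HIST2H2BE, had the same stem and loop. HIST1H3E and HIST2H2AC differed from these in the loop, and the H4 genes HIST1H4H and HIST2H4A had a different base pair inside the stem, HIST2H4A with another loop as well. The forms of HIST1H3E and HIST2H2AC were carried by 1 gene each and that of HIST2H4A by 4. HIST1H2AG and HIST1H2AK were the 2 coding members with no match. Among 11 histone genes outside the clusters that encode replacement or linker variants, only H2AFX, which encodes the DNA damage histone H2A.X, had a match.

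Promoter motifs also divided the genes by histone. RefSeq promoters, from 250 bases before to 50 bases after the start on GRCh38.p14, were matched for 65 of the 72 genes and compared with the 27305 promoters of that table. CCAAT, the site read by NF-Y, was found on either strand in 84.6% of member promoters and in 35.7% of all promoters. TATAAA was found in 66.2% of member promoters and in 11.95% of all. The octamer ATTTGCAT, the site of POU2F1 (Oct-1), was found in 38.5% and 1.802%. Matches of different motifs, or of a motif and its complement, may overlap. All 6 H1, 16 H2A, 18 H2B and 12 H3 promoters held a CCAAT, against 3 of 13 H4 promoters. The octamer was in 11 of 16 H2A and 14 of 18 H2B promoters and in none of the H1, H3 or H4 promoters, which is a statement about these letters in this window only.

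The upstream part of 5 of these promoters is printed for the genes on which the accessibility results turn, with matches to the 3 motifs in capitals. HIST1H2BJ had the highest ATAC-seq score of the set, HIST1H2BG shared its peak with HIST1H2AE, and HIST1H1C had the highest level. HIST1H4H had both an enhancer over its start and a peak in the TSA list only. HIST1H3B stands for the H3 genes, none of which had an ATAC-seq peak. The letters are those of RefSeq and were placed on hg19 by exact match.
HIST1H2BJ, chr6:27100575-27100824, minus strand: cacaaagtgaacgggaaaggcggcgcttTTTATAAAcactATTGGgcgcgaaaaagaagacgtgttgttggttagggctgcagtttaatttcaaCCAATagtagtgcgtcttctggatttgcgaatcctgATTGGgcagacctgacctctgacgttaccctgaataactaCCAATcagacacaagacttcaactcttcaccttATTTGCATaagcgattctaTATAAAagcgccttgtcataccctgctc
HIST1H2BG, chr6:26216917-26217166, minus strand: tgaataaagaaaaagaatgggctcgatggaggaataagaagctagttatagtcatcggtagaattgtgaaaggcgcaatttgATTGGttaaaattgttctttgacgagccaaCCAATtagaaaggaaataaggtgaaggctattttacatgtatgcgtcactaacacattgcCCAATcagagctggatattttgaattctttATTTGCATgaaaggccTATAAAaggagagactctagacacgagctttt
HIST1H1C, chr6:26056699-26056948, minus strand: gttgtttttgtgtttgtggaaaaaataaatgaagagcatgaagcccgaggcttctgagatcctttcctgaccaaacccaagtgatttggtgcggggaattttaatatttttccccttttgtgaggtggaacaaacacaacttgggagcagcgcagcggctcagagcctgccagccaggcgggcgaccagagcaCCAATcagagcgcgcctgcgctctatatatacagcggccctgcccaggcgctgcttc
HIST1H4H, chr6:26285763-26286012, minus strand: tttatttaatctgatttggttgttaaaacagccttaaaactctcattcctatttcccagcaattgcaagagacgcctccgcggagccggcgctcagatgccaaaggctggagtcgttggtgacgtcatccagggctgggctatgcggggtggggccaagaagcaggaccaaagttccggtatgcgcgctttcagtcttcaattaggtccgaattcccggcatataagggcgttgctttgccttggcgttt
HIST1H3B, chr6:26032328-26032577, minus strand: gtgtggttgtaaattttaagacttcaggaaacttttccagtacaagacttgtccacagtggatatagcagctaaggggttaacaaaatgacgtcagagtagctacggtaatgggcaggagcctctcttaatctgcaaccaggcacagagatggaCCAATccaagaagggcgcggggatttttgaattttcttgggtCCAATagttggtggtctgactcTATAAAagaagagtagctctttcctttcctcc

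HIST1H2BJ and HIST1H2BG carried all 3 motifs, HIST1H3B carried CCAAT and TATAAA, HIST1H1C carried a single CCAAT, and HIST1H4H carried none of them. An octamer was present in 13 of 21 promoters of genes with a TSA peak and in 12 of 44 without. All 25 promoters with an octamer were those of H2A or H2B genes, which made up most of the genes with a peak. The H1, H3 and H4 genes, with no octamer, made up most of those without. The split therefore mixes histone class with accessibility. Within H2A and H2B genes alone, the octamer was nearly as frequent in promoters without a TSA peak as in those with one. A link between octamer and peak within these genes was not tested.

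The poly(A)-selected levels of the histone genes ranged from the bottom of the table to its upper part. Of the 72 genes, 46 (63.9%) averaged at least 1 CPM, against 66.3% of all genes. Their median was 1.29 in average log2 CPM, against 2.94 for all genes and 3.19 for the 20798 genes with a placed start. Their mRNAs are short, however, and per kb of exon the medians were 2.10 for the members and 1.48 for the placed genes. By histone, the median level per kb was -0.58 for H1, 2.38 for H2A, 3.11 for H2B, 0.54 for H3 and 1.84 for H4, in log2 CPM per kb. With the length of the canonical transcript in place of all annotated exons, a choice made after seeing the data, the H2B median was 4.35 and the others -0.58, 2.55, 0.54 and 1.84 for H1, H2A, H3 and H4. At or above 1 CPM were 2 of 6 H1, 13 of 17 H2A, 16 of 20 H2B, 6 of 14 H3 and 9 of 15 H4 genes. These are orders of averages, and without a spread between cultures neighbouring medians cannot be separated. In bulk libraries, fewer cells that express a gene, such as those in S phase, and less RNA per cell cannot be told apart.

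**Figure D1:**
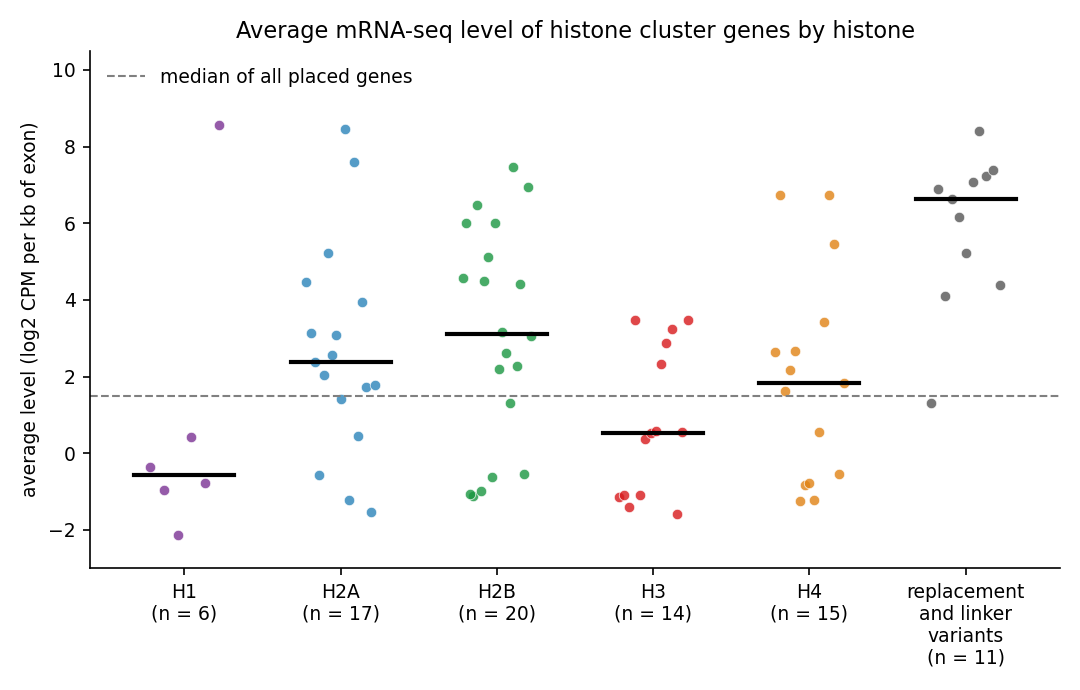
Average mRNA-seq level in log2 CPM per kb of exon (vertical axis) for each histone cluster gene, grouped by the histone it encodes, and for 11 replacement and linker variants, where each point is a gene, each bar is the median and the dashed line is the median of all 20798 placed genes at 1.48. The H2B and H2A medians, 3.11 and 2.38, lie above that line and the H3 and H1 medians, 0.54 and -0.58, below it, while the variants have a median of 6.64.

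HIST1H1C, which encodes the linker histone H1.2, had the highest level of the set at 8.11 in average log2 CPM (277 CPM), or 8.57 per kb. It stood apart from the other H1 genes. HIST1H1E, for H1.4, was at 0.06 in average log2 CPM, and HIST1H1A, at -2.55, was among the 3 lowest measured members, together with HIST1H2AA at -2.55 and HIST1H4A at -2.55. HIST1H3C and HIST1H4L were at the table's minimum of -2.62, a value shared by 2019 genes.

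HIST2H2BE, an H2B gene, was next at 8.10 in average log2 CPM (274 CPM), although its annotated transcript of 2224 bases brought it to 6.94 per kb. The other members of the highest 12, in average log2 CPM, were HIST2H2AA3 and HIST2H2AA4 at 7.55 each, HIST2H2BF at 6.56, HIST1H2BK at 6.46, HIST1H2BD at 5.80, HIST2H4A and HIST2H4B at 5.40 each, HIST1H2AC at 4.57, HIST2H2BA at 4.25 and HIST2H2AC at 4.19. Thus 8 of the 12 came from the HIST2 group, which has 13 genes in all. All 13 HIST2 genes averaged at least 1 CPM, against 30 of 55 HIST1 genes, and the median was 6.01 against 1.30 in log2 CPM per kb. The remaining HIST2 genes were HIST2H2BC at 3.77, HIST2H3A and HIST2H3C at 2.53 each, HIST2H3D at 1.24 and HIST2H2AB at 0.40 in average log2 CPM.

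The equal values inside the HIST2 group are not separate measurements. HIST2H2AA3 and HIST2H2AA4, HIST2H3A and HIST2H3C, and HIST2H4A and HIST2H4B are near-identical copies, and in each pair 100% of the 32-base words of the transcript occur elsewhere in the genome. The 2 members of each pair had the same average to the last digit, so the reads of a pair could not be assigned to either copy. HIST2H2AA3 and HIST2H2AA4 differed only per kb, at 7.59 and 8.45, through their annotated lengths. Over all members, 15 had more than 50% of their transcript words repeated, 10 of them in HIST2 and 5 in HIST1, including HIST1H2BK at 70.3%. In the HIST2 group only HIST2H2BE, HIST2H2AC and HIST2H2AB had mostly unique transcripts, and the part of shared sequence in the level of that group was not tested. Among the 57 others, 31 averaged at least 1 CPM.

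The HIST3 group and HIST4H4 were low. HIST3H2A was at 1.87 and HIST3H2BB at 1.78 in average log2 CPM, and HIST3H3, which encodes the testis histone H3T, was at -2.04. HIST4H4, an H4 gene, was at 0.89.

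Some histone genes are annotated with longer transcripts that run past the stem-loop. For 17 members GENCODE lists a transcript that ends more than 500 bases beyond the canonical one, or a canonical transcript of more than 1 kb. Of these 17, 16 averaged at least 1 CPM, with a median of 3.94 in log2 CPM per kb, against 30 of the other 55, with a median of 1.62. With the canonical length the medians were 5.14 and 1.62. The 17 include HIST2H4A and HIST2H4B, whose transcripts are wholly repeated and whose average is the same value. They also include HIST2H2BF and the pseudogene HIST2H2BA, with 85.9% and 84.1% of transcript words repeated. The part of repeated sequence in this difference was not tested. HIST1H2BD, HIST1H2AC, HIST2H2BF and HIST2H2BE belong to the 17, but HIST1H1C and HIST1H2BK, which have no such transcript in the annotation, do not. Whether the reads came from the longer transcripts was not tested, since the table has a value per gene only.

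The replacement and linker variants, whose genes lie outside the clusters and mostly yield polyadenylated mRNA, averaged at least 1 CPM in 11 of 11 cases, with a median of 6.64 in log2 CPM per kb. H3F3A and H3F3B, which encode H3.3, were at 6.89 and 7.09 per kb, and H2AFZ, for H2A.Z, at 7.24. CENPA, the centromeric H3, was lowest at 1.30 per kb. The 18 genes for histone gene transcription and mRNA 3′ processing also all averaged at least 1 CPM. NPAT, the S-phase coactivator, was at 1.90, CASP8AP2, its partner in histone expression, at 0.81 and HINFP, which activates H4 genes, at 2.49 in log2 CPM per kb. SLBP was at 4.62 and LSM10, a U7 snRNP subunit, at 4.74, while LSM11, its partner in that particle, was the lowest of the list at -2.24.

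The start sites of the histone genes seldom had a listed ATAC-seq peak, and more of them had one after TSA than after vehicle. A peak of the TSA list overlapped the window from 1000 bases upstream to 100 bases downstream of the start in 22 of 72 members (30.6%), against 60.6% of all 20798 genes with a placed start. A peak of the vehicle list did so in 9 members (12.5%), against 56.2% of all genes. In 13 members (18.1%) the peak was in the TSA list only, against 5.74% of all genes, and 0 members had a peak in the vehicle list only, against 1.34%. Among genes averaging at least 1 CPM, 20 of 46 members (43.5%) and 80.2% of all genes had a TSA peak, and 8 members (17.4%) and 75.6% of all genes a vehicle peak. These counts are of ATAC-seq peaks only, and a gene counted if any of its annotated starts had one. The 20798 genes had 57961 starts, while most members had a single start. A gene with more starts has more windows, and the part of this in the differences was not tested. Enhancers overlapping a DNase I site, another measure of accessible DNA, covered the starts of HIST1H1E, HIST1H2AD, HIST1H4E and HIST1H4H. None of these genes had a vehicle peak. Another such enhancer lay 0.42 kb downstream of the start of HIST1H3B, which had no peak in either list.

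**Figure D2:**
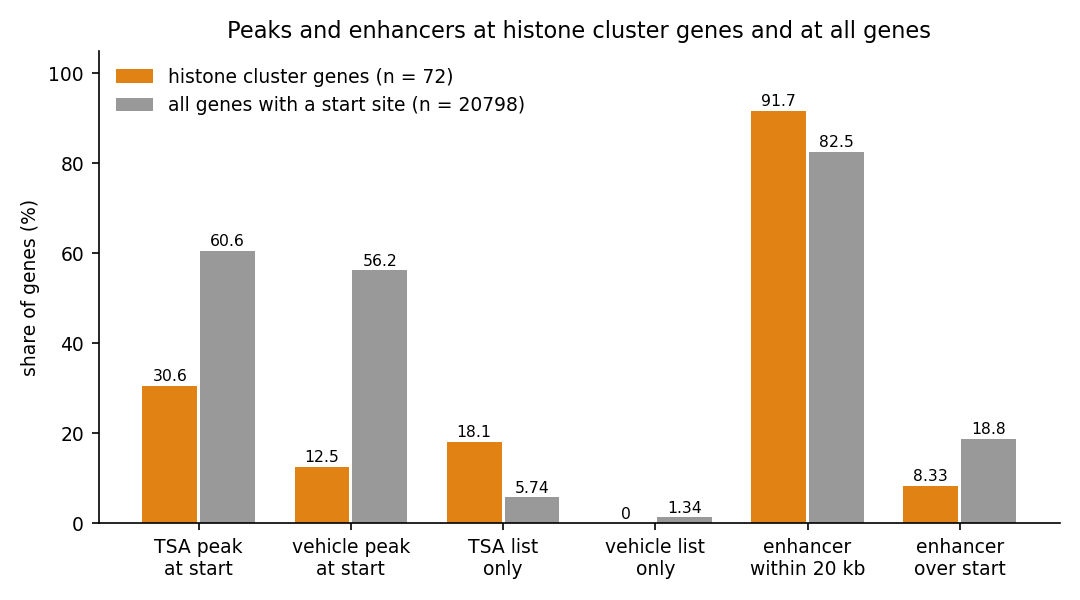
Share of genes in percent (vertical axis) with an ATAC-seq peak at the start in the TSA list, in the vehicle list, in the TSA list only or in the vehicle list only, and with a STARR-seq enhancer within 20 kb or over the start, for the 72 histone cluster genes (left bars) and all 20798 genes with a start site (right bars). The histone genes had fewer listed peaks in both conditions, 30.6% and 12.5% against 60.6% and 56.2%, but a larger share in the TSA list only, 18.1% against 5.74%. Any annotated start of a gene counted, and the 20798 genes had 57961 starts, while most histone genes had a single start.

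By histone, a TSA peak stood at 10 of 17 H2A, 8 of 20 H2B, 3 of 15 H4 and 1 of 6 H1 genes, and at none of the 14 H3 genes. A vehicle peak stood at 4 H2A, 4 H2B and 1 H4 gene. The authors kept unique alignments, and in 10 members, all of the HIST2 group, more than 50% of the 32-base words around the start are repeated in the genome, and none of these 10 had a peak. The part of repeated sequence in this absence was not tested. For the 62 others, 35.5% had a TSA peak and 14.5% a vehicle peak, and 11 of the 14 H3 genes were among the 62.

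The 22 genes shared 14 TSA peaks and the 9 genes shared 5 vehicle peaks, since many H2A and H2B genes are transcribed away from each other from a common promoter. There were 13 such head-to-head pairs, each of an H2A and an H2B gene, with starts 194 to 289 bases apart. A TSA peak covered both starts in 8 of the 13 pairs and a vehicle peak in 4, and 26 members in pairs thus held 16 of the 22 genes with a TSA peak. Outside pairs, 6 of 46 members had a TSA peak. Sharing a promoter did not mean sharing a poly(A)-selected level. HIST1H2BK averaged 6.46 and its partner HIST1H2AH -1.71 in log2 CPM, or 7.48 and -0.58 per kb of canonical transcript. However, 70.3% of the HIST1H2BK transcript words are repeated in the genome. HIST2H2BE averaged 8.10 and HIST2H2AC 4.19, but with the longer HIST2H2BE transcript taken into account they were at 6.94 and 5.21 per kb. HIST3H2A and HIST3H2BB differed by 0.10 in log2 CPM.

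HIST1H2BJ and HIST1H2AG had the highest score, an Fseq density of 0.0923 in the TSA list against 0.0541 in the vehicle list, a ratio of 1.71. HIST1H2AK and HIST1H2BN had 0.0691 in the TSA list and 0.0434 in the vehicle list. HIST1H2BK and HIST1H2AH had 0.0617 against 0.0471. HIST2H2BE and HIST2H2AC had 0.0596 against 0.0504. All 4 pairs, and so 8 of the 9 genes with a peak in both lists, scored higher in the TSA list, against 75.8% of all genes with both. The median ratio was 1.31 for the 9 genes and 1.15 for all. The genes of a pair share a peak, so the 9 genes stand for 5 vehicle peaks. Counted by peak, 4 of 5 scored higher in the TSA list, near the share of all genes with both. HIST4H4 was the exception, with 0.0617 in the TSA list and 0.0783 in the vehicle list.

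**Figure D3:**
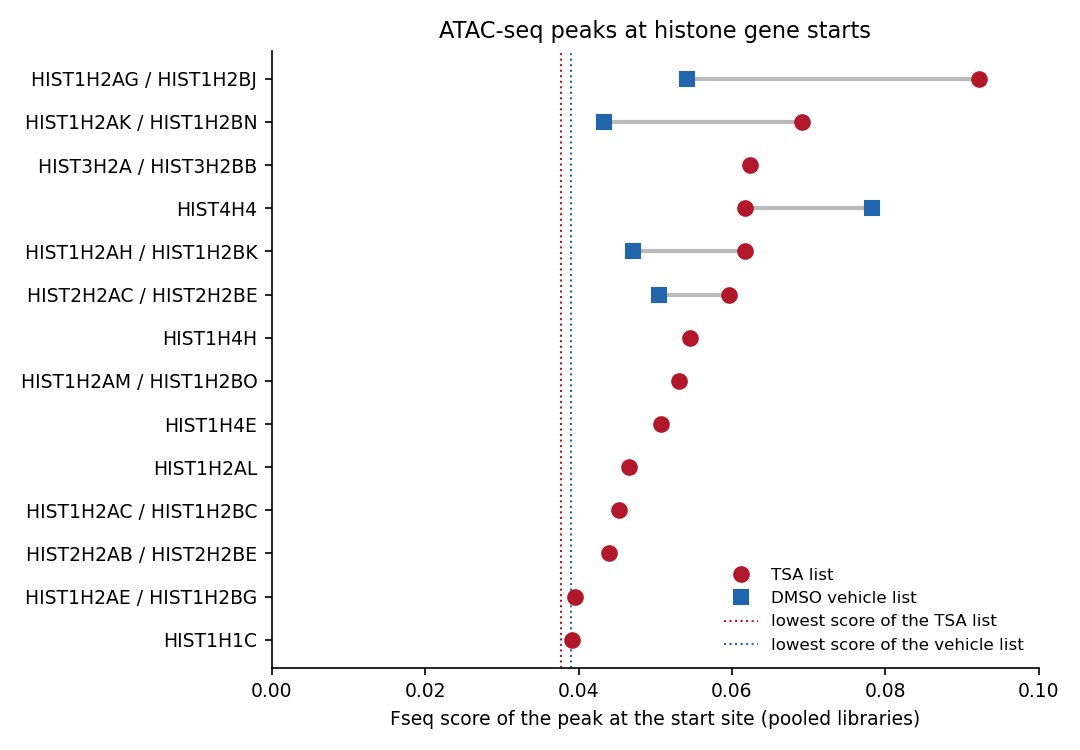
Fseq score (horizontal axis) of each of the 14 ATAC-seq peaks of the TSA list (circles) at histone gene starts, with the overlapping peak of the vehicle list (squares) where there is one, from 3 pooled cultures per condition and so without error bars, and with the lowest score of each list as dotted lines. All 9 peaks without a square scored 0.0624 or less, and only HIST4H4 has its square to the right of its circle.

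The 13 genes with a peak in the TSA list only were HIST1H1C, HIST1H2AC and HIST1H2BC, HIST1H2AE and HIST1H2BG, HIST1H2AL, HIST1H2AM and HIST1H2BO, HIST1H4E, HIST1H4H, HIST2H2AB, and HIST3H2A and HIST3H2BB. Their scores ran from 0.0392 at HIST1H1C to 0.0624 at HIST3H2A and HIST3H2BB, with a median of 0.0466. HIST1H2AE and HIST1H2BG had 0.0395, HIST2H2AB 0.0440, HIST1H2AC and HIST1H2BC 0.0453, HIST1H2AL 0.0466, HIST1H4E 0.0508, HIST1H2AM and HIST1H2BO 0.0531 and HIST1H4H 0.0546. The lowest listed score was 0.0377 in the TSA list and 0.0390 in the vehicle list, and the median of the TSA list was 0.0588. Of the 13 genes, HIST3H2A and HIST3H2BB alone were above that median. The absence of a vehicle peak therefore means a score below the end of that list, or no peak, and not closed chromatin. All 13 scored above the lowest value of the vehicle list, but whether the scores of the 2 lists are on a common scale is not given in the sources used here.

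Low score moved with presence in a single list. Of all 12600 genes with a TSA peak, 9.48% had no vehicle peak, and among the 6110 whose TSA score was at or below the members' highest, 18.9% had none. The share among the 22 members was 59.1%. That band was not matched to the members' scores. It reached 0.0923, near the median of 0.0944 at the starts of all genes with a TSA peak, while the 14 TSA peaks at members had a median of 0.0539. Counted by peak, 9 of the 14 TSA peaks at members overlapped no vehicle peak, against 32.8% of all peaks of the TSA list. With each list limited to its 30000 highest scores, 9 members had a peak in the TSA list only and 0 in the vehicle list only, against 5.78% and 1.45% of all genes. Of those 9, 7 were among the 13, and the other 2, HIST1H2AK and HIST1H2BN, have a vehicle peak that is outside the 30000 highest. Since paired genes share a peak and peaks were called on pooled cultures, these counts carry no test, and the part of the score in the difference was not tested.

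The position along chromosome 6 divided the genes further. The largest block, 32 genes between HIST1H1A and HIST1H4H over 268 kb, had 7 genes with a TSA peak and 0 with a vehicle peak. The 5 genes from HIST1H2BJ to HIST1H2AH, over 14.3 kb, had 4 and 4. The 16 genes from HIST1H2BL to HIST1H2BO had 5 and 2, and the distal pair of HIST1H2AA and HIST1H2BA, a testis H2B gene, had none in either list. Paired genes share a peak, so each block with peaks had fewer peaks than genes counted here. The first of these blocks held 16 genes of 32 at or above 1 CPM and the second 4 of 5.

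In the authors' merged table, 22 ATAC-seq sites had their centre within 20 kb of a histone gene start, and 14 of them contained a start. Of the 22 sites, 12 (54.5%) overlapped a peak of the TSA list only, 1 (4.55%) of the vehicle list only and 9 of both, against 25.9%, 21.6% and 52.6% of all 51909 sites. The median of their average log2 CPM was 4.18, against 3.54 for all sites. The site in the vehicle list only lay 17.9 kb from HIST4H4.

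The genes next to the clusters are few. Of 7 genes outside the set with a start within 20 kb of a histone gene, 4 had a peak in both lists and 0 in a single list. These 4 were BOLA1, TRIM11, MIR3143 and H2AFJ. The TSA score was the higher in 2 of the 4. TRIM11 scored 0.0992 in the TSA list and 0.0624 in the vehicle list, BOLA1 0.0616 and 0.0674, and H2AFJ, an H2A variant gene beside HIST4H4, 0.101 and 0.125. MIR3143 falls in the HIST1H2BK and HIST1H2AH peak, and so repeats its scores. All 18 factor genes had a peak in both lists, where 60.6% of all genes had a TSA peak and 56.2% a vehicle peak. The score was higher under TSA in 14 of the 18, near the 75.8% among all genes with both. NPAT scored 0.448 in the TSA list and 0.348 in the vehicle list, and SLBP 0.124 and 0.0909. H1F0, which encodes the linker histone H1.0, had a peak in the TSA list only, at 0.0416.

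Enhancer activity on plasmids, which is measured away from the chromatin of the locus, was found close to most histone genes. An enhancer of the authors' list, called by MACS2 at a q-value under 0.05, had its centre within 20 kb of the start in 66 of 72 members (91.7%), against 82.5% of all genes, and the median was 2 per gene in both. The genes stand so close that 1 enhancer counted for a median of 4 members and for up to 9, so that the 66 genes share 35 enhancers. HIST1H1D, HIST2H2BA, HIST2H2BF, HIST2H3D, HIST3H3 and HIST4H4 had none, and of these HIST2H2BA, HIST2H2BF and HIST2H3D have mostly repeated sequence around the start. Of the 35, 8 (22.9%) lay in open chromatin, meaning that they overlapped a DNase I site of LNCaP cells, against 12.7% of all enhancers, and 27 in closed chromatin. All enhancers include those far from genes. Shares among enhancers within 20 kb of any gene were not computed, here or for the peak overlaps below. The deposited fold enrichment is that of output over input with 1 fragment added to both terms. Its median was 3.12, against 3.08 for all enhancers, and the values ran from 1.98 to 6.97. Behind each value stood 24 to 89 output fragments at the summit. The 95% intervals given with the folds are exact Poisson intervals of the output fragments, which cover output counting error only. They leave out the error of the input and the spread between replicates. They also treat fragments as independent, although the authors kept identical fragments from different indexing libraries.

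**Figure D4:**
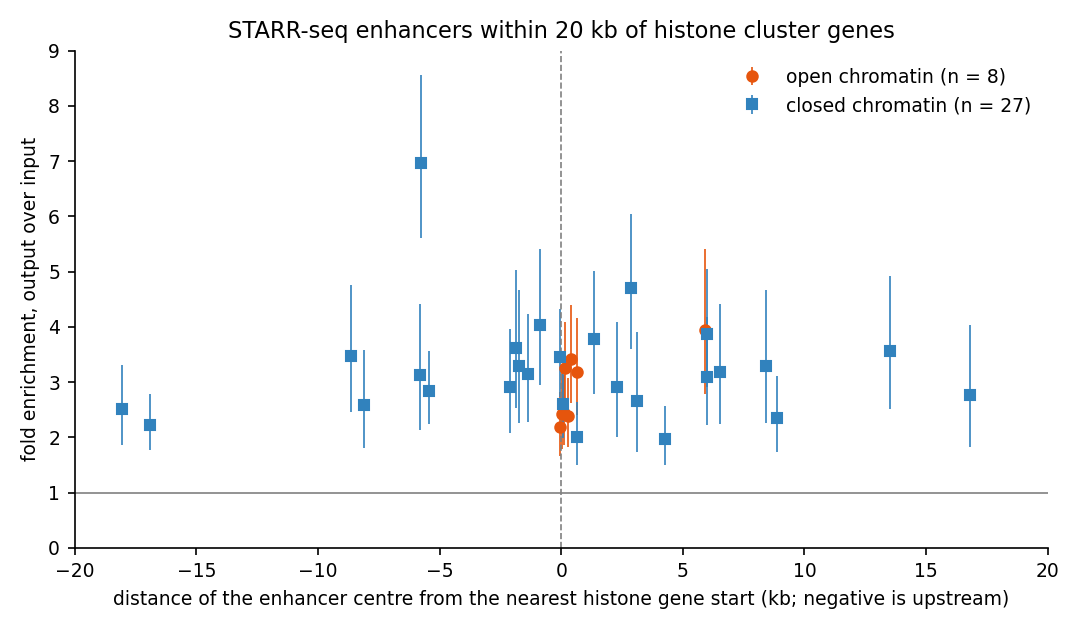
Fold enrichment of STARR-seq output over input (vertical axis) for the 35 enhancers within 20 kb of a histone gene, by the distance of the centre from the nearest histone gene start in kb (horizontal axis), where circles are the 8 enhancers in open chromatin, squares the 27 in closed chromatin and bars 95% Poisson counting intervals. One closed enhancer, 5.75 kb upstream of HIST1H2BE, has the highest fold at 6.97, while the others lie between 1.98 and 4.70.

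The enhancer of highest fold was in closed chromatin, 5.75 kb upstream of HIST1H2BE, an H2B gene, and within 20 kb of 4 members. Its fold was 6.97, with an interval of 5.62 to 8.57, from 89 output fragments against 11.9 scaled input fragments, and 97.4% of all enhancers had a lower fold. The other closed enhancers among the 5 highest had a fold of 4.70 (3.60 to 6.05) 2.86 kb downstream of the start of HIST1H2AA, 4.04 (2.95 to 5.41) 0.89 kb upstream of HIST1H2BE, 3.87 (2.91 to 5.04) 5.98 kb downstream of HIST1H2AH and 3.77 (2.78 to 5.00) 1.33 kb downstream of HIST1H4C. Their intervals overlap one another, and of these 4 only the 4.70-fold enhancer has an interval that overlaps that of the strongest. As the intervals hold output counting error only, they cannot separate or rank the enhancers. In open chromatin the highest folds were 3.94 (2.79 to 5.41) 5.90 kb downstream of HIST1H2AA, 3.42 (2.62 to 4.40) 0.42 kb downstream of HIST1H3B, 3.26 (2.56 to 4.08) at HIST1H1E, 3.19 (2.40 to 4.16) 0.64 kb downstream of HIST1H2BJ and 2.44 (1.86 to 3.14) at HIST1H2AD. These intervals also overlap. The 151 bases around the summit of the strongest open enhancer are shown, in hg19 coordinates, since it had the highest fold in open chromatin near the clusters. Its scaled input of 8.40 fragments was the lowest among the 35 enhancers, and 6 of them, this one included, had exactly that value. It may thus be a lower limit of the input term and not a local count, and the fold depends on it.
Open enhancer downstream of HIST1H2AA, chr6:25720814-25720964, plus strand: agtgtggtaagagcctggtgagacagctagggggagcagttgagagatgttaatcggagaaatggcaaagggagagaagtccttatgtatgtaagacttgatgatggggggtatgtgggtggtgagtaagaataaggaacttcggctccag

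Its GC content was 48.3%.

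An enhancer covered an annotated start itself in 6 members (8.33%), against 18.8% of all genes, which on average had more starts than the members. HIST1H1E, HIST1H2AD, HIST1H4E and HIST1H4H had an open enhancer there, with folds of 3.26, 2.44, 2.42 and 2.18. HIST1H3C and HIST1H4L, the genes at the minimum of the mRNA-seq table, had a closed enhancer over the start, with folds of 2.60 (1.99 to 3.33) and 3.46 (2.73 to 4.33). Of the 6, HIST1H4E at 2.16 and HIST1H4H at 4.18 in average log2 CPM were also those with a peak in the TSA list only, and none had a vehicle peak. In all, 4 of the 35 enhancers (11.4%) overlapped a TSA peak, against 7.69% of all enhancers, and 1 (2.86%), downstream of the HIST1H2BJ start, a vehicle peak, against 6.26%. No enhancer lay over the start of a HIST2, HIST3 or HIST4 gene. For STARR-seq, too, the authors kept only reads with a single place in the genome. The 10 HIST2 members with mostly repeated words around the start had a mean of 0.7 enhancers within 20 kb, against 2.48 for the 62 others. The part of repeated sequence in this was not tested.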

How the data were processed

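The 72 genes and the lists were chosen with earlier results of these data known. Reads had been aligned to hg19 by the authors, with TopHat for mRNA-seq, Bowtie for STARR-seq, and Bowtie, cutadapt and Bowtie2 for ATAC-seq, whose reads were shifted to the transposon centre. Picard removed duplicates. No version of these tools was found in the sources. The deposited mRNA-seq and ATAC-seq tables hold an average log2 CPM per gene or merged site from the authors' edgeR fit. It was not stated whether counting used strand. The same tables hold the authors' TSA against vehicle comparison (a log2 fold change, a likelihood ratio, a p-value and, for ATAC-seq, a q-value), which was not used, so no effect of TSA on mRNA is reported. The deposited peak lists hold an Fseq signal score per peak, 1 list for each condition. The deposited enhancer lists hold, from the authors' MACS2 call, a fold ratio of output over input, with 1 fragment added to both terms as MACS2 computes it, a −log10 p-value and a −log10 q-value. Other columns of single libraries numbered 0.

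Start sites came from GENCODE for GRCh37, the assembly of hg19, and 20798 genes with 57961 start sites were placed, 3 members by exact match of their RefSeq promoter. Overlap means at least 1 shared base. Levels were divided by the union of exons of the GENCODE basic transcripts. Output fragments were recovered from the deposited fold and p-value, a step tested on simulated data. Words of 32 bases found more than once in GRCh37 were counted as repeated. Named genes were the 12 highest and 3 lowest measured members, all HIST2, HIST3 and HIST4 members, those with an enhancer over the start or a peak in 1 condition only, and those nearest the 5 highest open and closed enhancers. Examples from the factor, variant and neighbour lists, and HIST1H2BK with its partner, were picked after their values were seen, as were the sequences shown. The sequence of 1 enhancer is not reported here. Alternatives were other windows, distances, thresholds and lengths. Tools were Python 3.11.15, numpy 2.4.6, pandas 2.3.3, scipy 1.17.1, pysam 0.24.0 and matplotlib 3.10.9.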

Additional observations from a re-analysis of the deposited data

How the results depend on the processing

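No paired analysis was possible because no deposited value belongs to a single library, and for the same reason no replicate could be left out. The number of members at or above 1 CPM was 46, and it was 28 at a threshold of 4 CPM. Enhancers near a member numbered 35 within 20 kb and 53 within 50 kb. All other counts stayed within 1.5 times their value. Members with a TSA peak numbered 16 to 22 and with a vehicle peak 7 to 9 over the alternatives, and those in the TSA list only 9 to 13 (7 genes shared between the full lists and their 30000 highest scores), against 0 in the vehicle list only in each. Restricting members to those with mostly unique sequence, and the canonical transcript length, which gave a median level per kb of 2.47 in place of 2.10 in log2 CPM, were chosen after seeing the data. For all placed genes that length gave 1.69 in place of 1.48. With that length the H2B median was 4.35 in place of 3.11 and that of the 17 genes with a longer transcript 5.14 in place of 3.94, while the HIST2 and HIST1 medians were 6.74 and 1.74 in place of 6.01 and 1.30. The depth of every library is unknown here, so a missing peak is a limit of the lists and not a measured absence.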
